A study of Homo sapiens with 6 samples.

Results

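The genes described here are 41 components of TGF-beta and BMP signalling, listed by symbol as ligands, receptors, SMAD proteins, ID proteins, inhibitors and the target CCN2. All probes that the platform annotation assigns to 1 of these symbols were taken, which gave 73 of the 48701 probes on the array and 40 of 18833 named genes. BMPR1A was matched to no probe and was not analysed here. Expression had been profiled in A549, an epithelial line derived from a human lung adenocarcinoma, in 3 groups of 2 arrays each. The first group received an siRNA (a short double-stranded RNA that directs degradation of a matching transcript) against ncRNA-a7, a long noncoding RNA transcribed near SNAI1. The second received an siRNA against Snai1, the zinc finger repressor of epithelial genes, and the third a control siRNA. All cells shared the same culture medium with serum. The siRNA sequences and the time from transfection to harvest are not given in the sources used here, and nothing says that the 2 arrays of a group came from separate cultures, so the p-values measure the spread between arrays, which may be technical.

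Ligands of this family are dimers that bring together type II and type I receptor kinases. The type I receptor then phosphorylates receptor-regulated SMAD proteins, SMAD2 and SMAD3 downstream of TGF-beta and activin and SMAD1, SMAD5 and SMAD9 downstream of BMPs, which enter the nucleus with SMAD4. The pathway induces its own inhibitors, among them SMAD6, SMAD7, SKIL and PMEPA1, and BMPs induce the ID proteins, which block basic helix-loop-helix transcription factors. In carcinoma cells of epithelial origin TGF-beta is a known inducer of epithelial to mesenchymal transition, and SNAI1 is a known target of the pathway.

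BMPR2, ID2, ID4, SMAD6 and CCN2 are among the genes on which the results turn, and the 250 bases before the annotated start of each are shown as examples of genes that differed between groups. The 5 genes and the motifs were chosen after their values had been seen. The sequences are RefSeq promoters of build GRCh38.p14, in which 40 of the 41 genes had an entry (BMP2 had none). Capitals mark matches, on either strand, to 5 motifs: the SMAD palindrome GTCTAGAC, the CAGA box CAGACA, the GC-rich SMAD element GGCGCC, the E-box CAGGTG bound by SNAI1 and the TEAD site GGAATG. No 2 of the capital stretches below overlap.
BMPR2, chr2:202376077-202376326, plus strand: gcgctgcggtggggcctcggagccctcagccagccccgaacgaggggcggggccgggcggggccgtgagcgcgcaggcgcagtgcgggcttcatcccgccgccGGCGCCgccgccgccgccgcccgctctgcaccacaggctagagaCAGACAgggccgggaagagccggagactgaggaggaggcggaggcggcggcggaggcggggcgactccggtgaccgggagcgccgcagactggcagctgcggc
ID2, chr2:8681806-8682055, plus strand: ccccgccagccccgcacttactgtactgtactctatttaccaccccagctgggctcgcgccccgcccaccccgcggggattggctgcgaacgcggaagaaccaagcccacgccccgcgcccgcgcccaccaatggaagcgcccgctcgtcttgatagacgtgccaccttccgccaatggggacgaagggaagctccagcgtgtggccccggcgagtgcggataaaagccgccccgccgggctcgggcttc
ID4, chr6:19837120-19837369, plus strand: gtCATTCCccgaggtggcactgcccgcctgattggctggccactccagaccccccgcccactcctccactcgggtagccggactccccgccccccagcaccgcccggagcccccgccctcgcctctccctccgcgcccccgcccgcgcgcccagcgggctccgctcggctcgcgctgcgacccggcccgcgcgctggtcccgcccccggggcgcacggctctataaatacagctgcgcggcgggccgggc
SMAD6, chr15:66701986-66702235, plus strand: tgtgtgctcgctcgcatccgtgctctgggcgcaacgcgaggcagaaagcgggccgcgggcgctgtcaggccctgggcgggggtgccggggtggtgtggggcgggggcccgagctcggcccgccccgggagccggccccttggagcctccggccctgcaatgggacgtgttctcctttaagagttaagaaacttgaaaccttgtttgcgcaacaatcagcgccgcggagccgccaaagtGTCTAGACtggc
CCN2, chr6:131951373-131951622, minus strand: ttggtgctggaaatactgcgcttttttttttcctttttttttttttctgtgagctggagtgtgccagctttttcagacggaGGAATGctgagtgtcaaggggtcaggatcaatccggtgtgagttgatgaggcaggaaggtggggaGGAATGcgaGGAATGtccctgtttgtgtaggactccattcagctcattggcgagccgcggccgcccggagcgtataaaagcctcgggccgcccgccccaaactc

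The SMAD palindrome was found in the SMAD6 window, 12 to 5 bases before the start, and in 0.182% of 35116 promoter windows of the same length. The 40 listed genes with an entry had 78 windows, and it was in 1 of these. The CCN2 window held 3 TEAD sites, a motif present in 11.9% of all windows and in 10 of the 78, from 9 of the 40 genes. The BMPR2 window held 1 CAGA box and 1 GC-rich element, found in 13.6% and 16.4% of all windows and in 15 and 17 of the 78. The SNAI1 E-box was in 17.5% of all windows and in 9 of the 78, and in none of the 5 windows shown. Those 9 came from 7 of the 40 genes, ACVR1B, FST, PMEPA1, SMAD3, SMAD7, SMURF2 and TGFBR1. These are matches of letters in a short window, and binding was not measured.

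Signals below are the deposited linear intensities, not normalized, and tests were run on background-corrected, quantile-normalized log2 values. The mean signal over all probes was 715 on replicate 2 of Snai1 siRNA and 806 to 914 on the other 5 arrays, so bright probes read lower on that array before normalization, while medians ran from 147 to 154. The targeted genes could not be checked. The SNAI1 probe read 139 and 146 with ncRNA-a7 siRNA, 128 and 127 with Snai1 siRNA and 143 and 144 with control siRNA, all below the filter on dim probes, and so did the probe of TRERNA1, the symbol of ncRNA-a7 from general knowledge, at 118 to 143. Of 12 markers of A549 and lung epithelium, 9 passed the filter, with KRT8, an epithelial keratin, at 12754 to 19793, and NKX2-1, SFTPC and AKR1C1 too dim. Their summed signal was 161534 to 179096 with ncRNA-a7 siRNA, 145186 to 173054 with Snai1 siRNA and 119344 to 136139 with control siRNA, a sum set by a few bright probes. Single markers went both ways: 4 were called higher and 2 lower with ncRNA-a7 siRNA, and 3 higher and 1 lower with Snai1 siRNA. CDH1, ALDH3A1 and AKR1B10 were called higher with both siRNAs, and EPCAM lower with both. With ncRNA-a7 siRNA KRT8 was also higher and KRT18 lower. CDH1, or E-cadherin, read 5039 and 4775 with ncRNA-a7 siRNA, 5956 and 4131 with Snai1 siRNA and 2939 and 3481 with control siRNA. EPCAM, an epithelial adhesion molecule, read 743 and 544 with ncRNA-a7 siRNA, 1014 and 716 with Snai1 siRNA and 1642 and 2272 with control siRNA, and its fall with each siRNA held under all 16 alternatives. Summed signals of 5 fibroblast markers ran from 708 to 714 with ncRNA-a7 siRNA, 731 to 733 with Snai1 siRNA and 672 to 739 with control siRNA, with COL3A1, PDGFRB and THY1 below the filter. Those of the 4 leukocyte markers with a probe ran from 917 to 949, 810 to 1000 and 657 to 667 in the same order of groups, with PTPRC and CD3E below the filter, and those of 5 endothelial markers from 829 to 949, 914 to 1053 and 802 to 863, with CDH5 and TEK below it. Of these non-epithelial markers, CD14 and ESAM were called higher than control with both siRNAs. ITGAM was called higher with ncRNA-a7 siRNA and COL1A1 with Snai1 siRNA, while DCN, KDR and PECAM1 were not called. CD14 read 394 and 387, 494 and 342, and 219 and 225 in the same order of groups. The part of such differences in the results was not tested, and in bulk RNA fewer cells of a type and less RNA per cell cannot be told apart. Below, arrays are named by siRNA and replicate number, as in a7 array 1.

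Of the 40 genes with a probe, 38 passed the filter, which kept probes with a mean above the median of all probes, and 59 of the 73 probes did. TGFB1, read at 131 to 154, and INHBA, read at 123 to 158, did not. A gene was represented by its brightest probe and called at an adjusted p under 0.05 (limma, Benjamini-Hochberg over 19730 features). With ncRNA-a7 siRNA against control siRNA, 6 of 38 genes were called higher and 3 lower, or 23.7%, while 9.83% of all features were called, 5.73% higher and 4.11% lower. With Snai1 siRNA against control siRNA, 4 were called higher and 3 lower, or 18.4%, while 9.15% of all features were called, 4.89% higher and 4.26% lower. Between the siRNAs, 5 were higher and 4 lower with ncRNA-a7 siRNA than under Snai1 siRNA, or 23.7%, while 8.1% of all features were called, 4.73% higher and 3.37% lower. The shares of the genes and of all features were not tested against each other, since the list was drawn up with results of these arrays known. Both comparisons with control siRNA share the 2 control arrays, so a gene that differs alike in both is not independent evidence.

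The counts depended on the arrays used. With ncRNA-a7 siRNA 4 genes were called without control array 1 and 5 without control array 2, where 560 and 673 of 19730 features were called, against 1940 on all arrays. With Snai1 siRNA 2 were called without Snai1 array 2 or without control array 1, and 3 without control array 2, where 666, 466 and 700 features were called, against 1805. Between the siRNAs the count was 4 without Snai1 array 1 or a7 array 1, 5 without Snai1 array 2, and 6 without control array 1 or a7 array 2. Features called in those 5 fits ran from 339 to 999, against 1598, so the counts fell among all features too. With median scaling in place of quantile normalization, 1 gene was higher and 3 were lower with Snai1 siRNA, and 4 were higher and 1 lower between the siRNAs. With that setting 33.8% of called features were higher with Snai1 siRNA, against 53.4% with quantile normalization, and 70.6% were higher between the siRNAs, against 58.4%.

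Groups whose normalized values did not overlap were common among all features. With ncRNA-a7 siRNA against control siRNA 13 of the 38 genes lay wholly higher and 7 wholly lower, beside 25% and 27.1% of all features. With Snai1 siRNA against control siRNA 15 lay wholly higher and 5 wholly lower, beside 25.7% and 27.7%, and between the siRNAs 10 and 13, beside 25.3% and 25.6%. The median log2 difference of the 38 genes was 0.01 with ncRNA-a7 siRNA against control siRNA, 0.02 with Snai1 siRNA against control siRNA and -0.04 between the siRNAs, beside medians of -0.01, -0.01 and -0.01 over all features. The median size of the difference, without its sign, was 0.19, 0.15 and 0.19 for the genes and 0.15, 0.15 and 0.15 for all features. In all, 14 of the 38 genes were called in at least 1 comparison, in 25 calls. Each call was recomputed under 16 alternatives, 10 with another processing setting and 6 that left out 1 array. All 25 calls kept their direction under all 16, and 8 of the 25 stayed past the threshold under all 16. Some alternatives reused the same values and could not change a difference: another filter, every probe tested, the 2 groups alone and a replicate block. Those bear on the threshold alone, not on the direction.

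**Figure D1:**
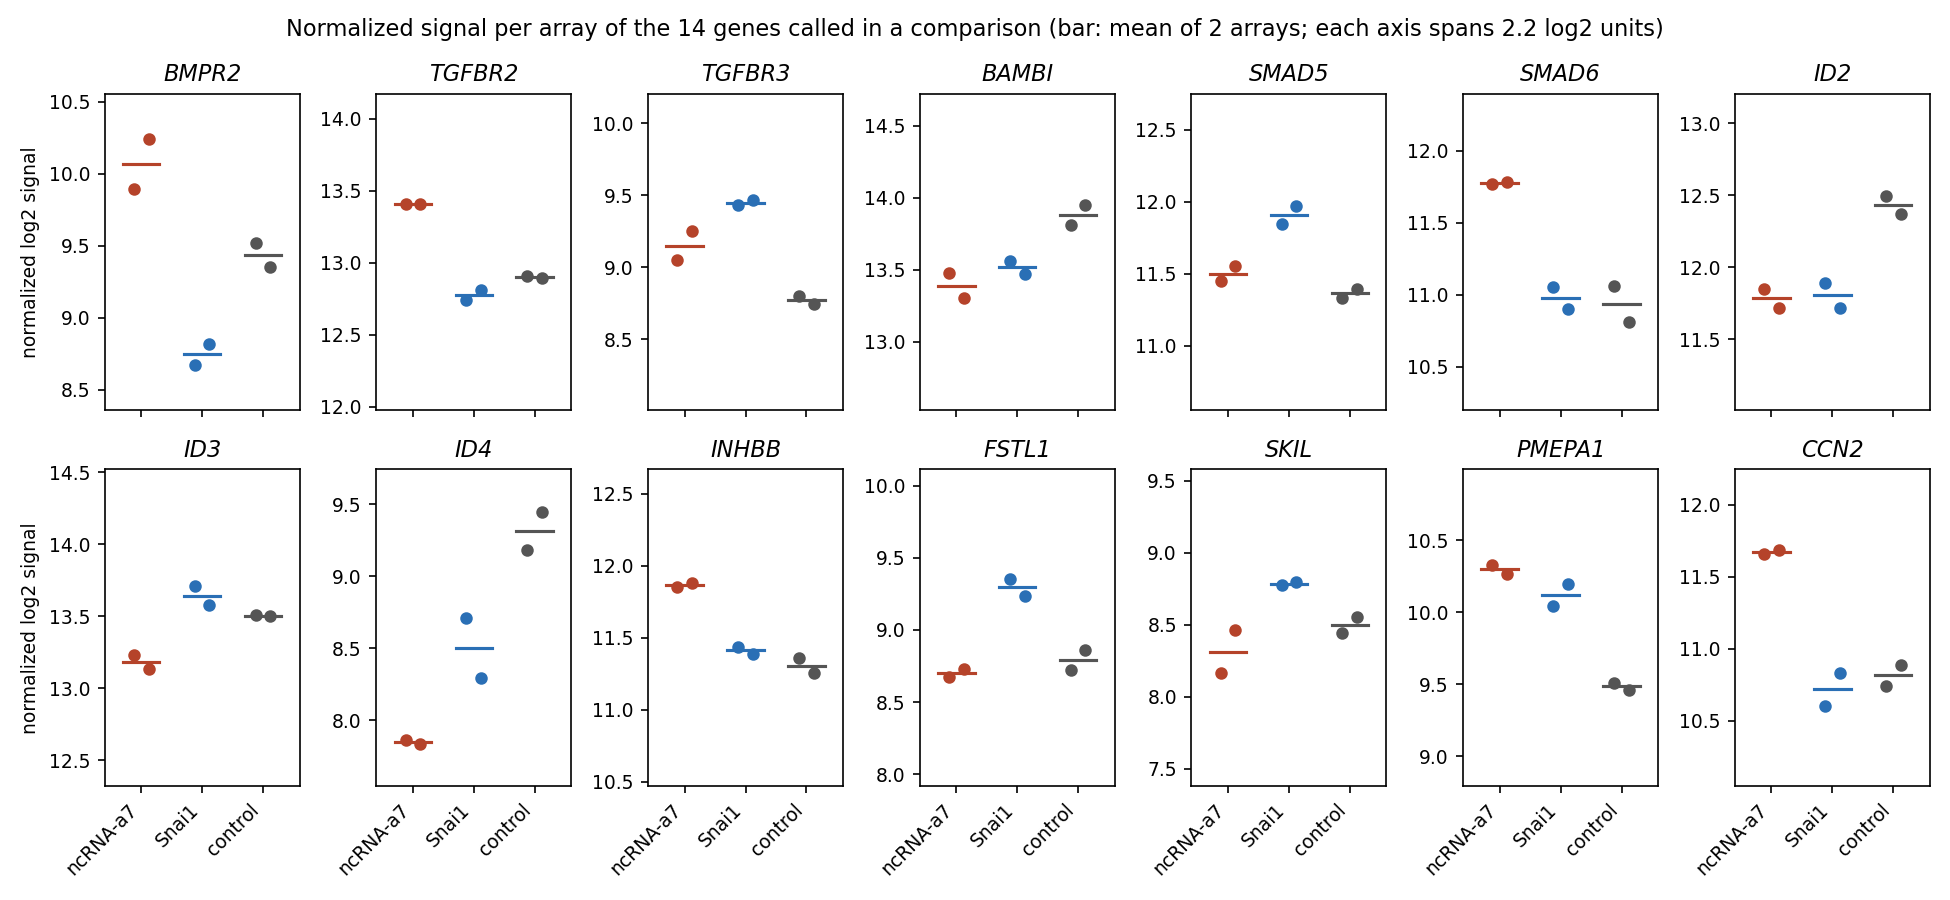
Normalized log2 signal of the brightest probe on each of the 6 arrays, for the 14 genes called in at least 1 comparison; points are arrays, bars the mean of the 2 arrays of a group, and groups run from ncRNA-a7 siRNA through Snai1 siRNA to control siRNA. BMPR2 is above control with ncRNA-a7 siRNA and below it with Snai1 siRNA, SMAD6 and CCN2 stand apart with ncRNA-a7 siRNA alone, and ID2 and ID4 are below control with both siRNAs.

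Among the type II receptors, BMPR2, the receptor that pairs with type I receptors to bind BMPs, moved in opposite directions with the 2 siRNAs. Its brightest probe read 1008 and 1243 with ncRNA-a7 siRNA, 503 and 424 with Snai1 siRNA and 745 and 795 with control siRNA. The groups did not overlap. BMPR2 was 1.55-fold higher under ncRNA-a7 siRNA than under control siRNA (0.63 ± 0.14 SE on the log2 scale, limma adjusted p = 0.0149, with 2 arrays in each group) and 1.62-fold lower with Snai1 siRNA than under control siRNA (-0.69 ± 0.14, adjusted p = 0.00904). Compared directly, it was 2.50-fold higher under ncRNA-a7 siRNA than under Snai1 siRNA (1.32 ± 0.14, adjusted p = 0.000357), the largest difference between the siRNAs among the 38 genes. A second BMPR2 probe read 977 and 1028 with ncRNA-a7 siRNA, 444 and 390 with Snai1 siRNA and 611 and 694 with control siRNA. Both probes thus gave the same order of groups, and the second differed by 0.73, -0.60 and 1.33 on the log2 scale in the same 3 comparisons, all called with every probe tested on its own.

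The direct difference of BMPR2 held under all 16 alternatives (adjusted p up to 0.0126). The rise with ncRNA-a7 siRNA was lost without control array 1 (adjusted p = 0.0685), control array 2 (0.125) or a7 array 2 (0.0988), and with an offset of 16 (0.06), median scaling (0.0574) or no filter (0.0569). The fall with Snai1 siRNA was lost without Snai1 array 1 (0.0663) or control array 1 (0.114).

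TGFBR2, the type II receptor of TGF-beta, read 11297 and 10394 with ncRNA-a7 siRNA, 7641 and 5934 with Snai1 siRNA and 7638 and 8578 with control siRNA. Both ncRNA-a7 arrays were above the other 4. It was 1.42-fold higher under ncRNA-a7 siRNA than under control siRNA (0.51 ± 0.11 SE on the log2 scale, limma adjusted p = 0.0141) and 1.55-fold higher than with Snai1 siRNA (0.63 ± 0.11, adjusted p = 0.00623), while Snai1 siRNA differed from control by -0.12 ± 0.11 (adjusted p = 0.561). Its probes disagreed. A second probe, read at 4121 to 7942, rose by 0.43 and 0.60 in the 2 comparisons called, whereas 2 dimmer probes, read at 202 to 373, differed by 0.13 and -0.24 from control and by 0.29 and -0.14 from Snai1 siRNA. The mean of its probes was not called against control (0.21, adjusted p = 0.321) or between the siRNAs (0.35, adjusted p = 0.108). The call against control was also lost with median scaling (adjusted p = 0.235), with no filter (0.0683) and without control array 1 (0.103), control array 2 (0.0954), a7 array 1 (0.059) or a7 array 2 (0.0555).

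The activin type II receptors ACVR2A and ACVR2B were not called, with log2 differences from -0.29 to 0.28. None of the 4 type I receptors with a probe was called by limma either, while at an unadjusted p under 0.05 there was 1 with Snai1 siRNA, 0 with ncRNA-a7 siRNA and 1 between the siRNAs. ACVR1, a BMP type I receptor, read 3618 and 3335 with ncRNA-a7 siRNA, 4196 and 2786 with Snai1 siRNA and 2730 and 3641 with control siRNA. ACVR1B, the activin type I receptor, read 1964 and 1702, 2614 and 1776, and 1592 and 2019 in the same order, and its difference of 0.39 with Snai1 siRNA missed the threshold (adjusted p = 0.0666). BMPR1B differed by at most 0.15 in size in any comparison, with adjusted p from 0.498 to 0.861. TGFBR1, the TGF-beta type I receptor, was dim, at 140 to 179 on all arrays, close to the median of all probes. Its 95% confidence interval between the siRNAs ran from -0.33 to 0.34 on the log2 scale.

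Of the co-receptors, TGFBR3, or betaglycan, which presents TGF-beta2 to the receptors, rose with Snai1 siRNA. It read 584 and 655 with ncRNA-a7 siRNA, 824 and 629 with Snai1 siRNA and 470 and 537 with control siRNA. All 4 knockdown arrays were above both control arrays. The difference was 1.60-fold with Snai1 siRNA (0.67 ± 0.12 SE on the log2 scale, limma adjusted p = 0.00461), and it held under all 16 alternatives. With ncRNA-a7 siRNA it was 0.37 ± 0.12 (adjusted p = 0.0712), which passed the threshold with no background correction (0.0324) and over probes above the 75th percentile of mean signal (0.0185), and the siRNAs did not differ past the threshold (-0.30, adjusted p = 0.151). ENG, or endoglin, a co-receptor of endothelial cells, read 149 to 160 and was not called.

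BAMBI, a pseudoreceptor that lacks the kinase domain and dampens signalling, read 11882 and 9663 with ncRNA-a7 siRNA, 13236 and 9270 with Snai1 siRNA and 14306 and 17413 with control siRNA. Both control arrays were above the other 4. It was 1.40-fold lower under ncRNA-a7 siRNA than under control siRNA (-0.49 ± 0.12 SE on the log2 scale, limma adjusted p = 0.0263) and differed by -0.36 ± 0.12 with Snai1 siRNA (adjusted p = 0.09). The siRNAs differed by -0.13 (adjusted p = 0.581). The call with ncRNA-a7 siRNA was lost without control array 1 (adjusted p = 0.0924), control array 2 (0.166) or a7 array 2 (0.125), and with an offset of 16 (0.0745), median scaling (0.0515) or no filter (0.106). The difference with Snai1 siRNA passed the threshold with no background correction (0.0278) and over probes above the 75th percentile of mean signal (0.0254).

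**Figure D2:**
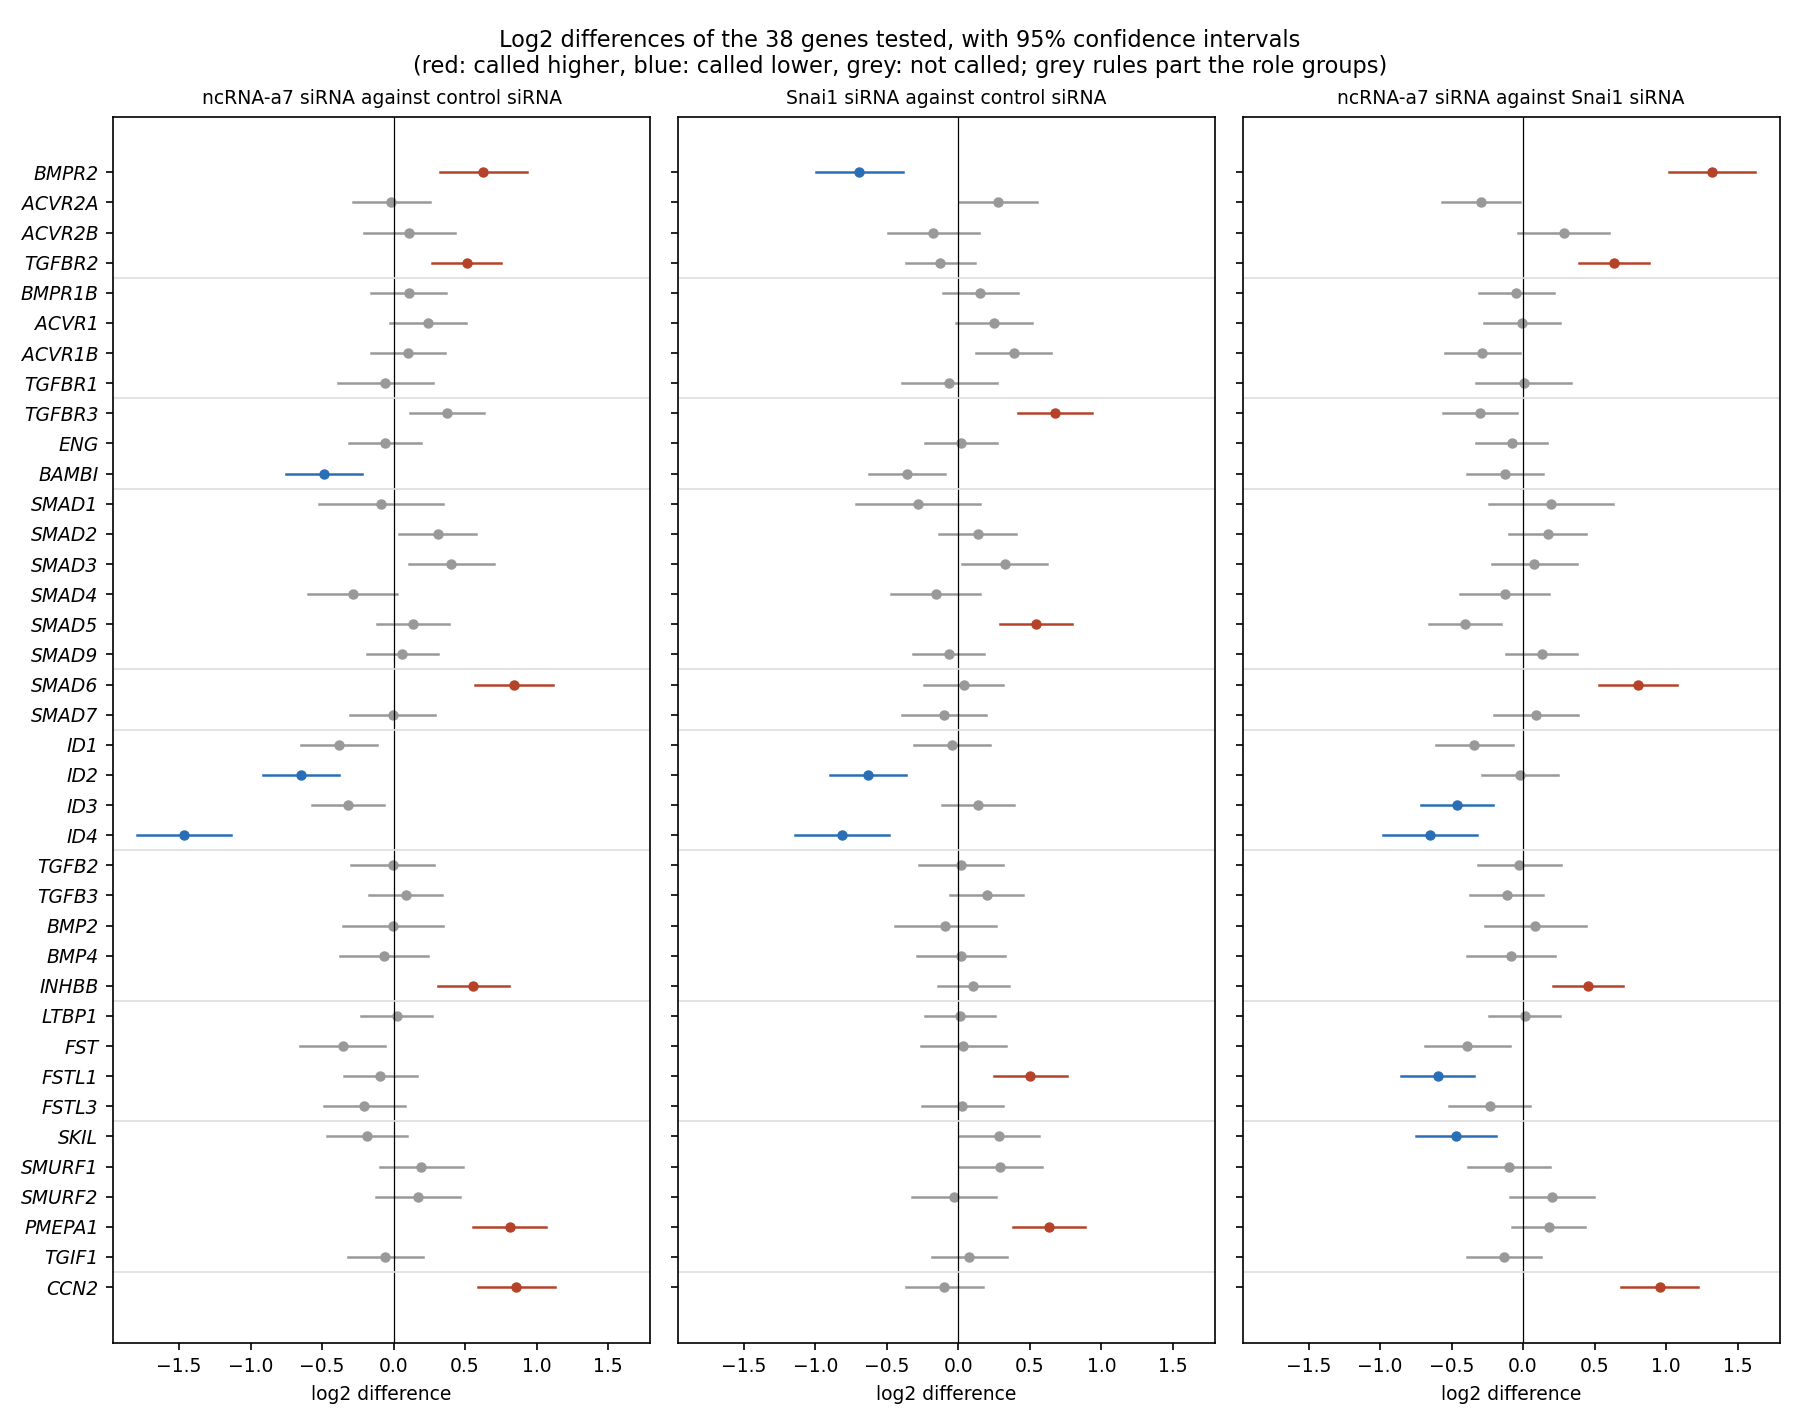
Log2 difference of each of the 38 genes tested in the 3 comparisons, in role groups from type II receptors at the top to CCN2 at the bottom; points are limma estimates, lines 95% confidence intervals, and colour marks genes called higher or lower. Of 38 genes 9 are coloured with ncRNA-a7 siRNA against control siRNA, 7 with Snai1 siRNA against control siRNA and 9 between the siRNAs, and the ligands other than INHBB lie near 0.

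Of the receptor-regulated SMADs and SMAD4, 1 of 6 was called, in 1 comparison. SMAD5, a transducer of BMP signals, read 2862 and 2920 with ncRNA-a7 siRNA, 4204 and 3322 with Snai1 siRNA and 2531 and 3122 with control siRNA. Both Snai1 arrays were above the other 4. It was 1.46-fold higher with Snai1 siRNA than under control siRNA (0.55 ± 0.12 SE on the log2 scale, limma adjusted p = 0.0123), differed by 0.14 with ncRNA-a7 siRNA (adjusted p = 0.526), and by -0.41 between the siRNAs (adjusted p = 0.0515). That last difference passed the threshold with no background correction (0.0119) and over probes above the 75th percentile (0.0112). A second SMAD5 probe, at 429 to 729, differed by 0.30 with Snai1 siRNA and was not called (adjusted p = 0.444), and another was below the filter. The SMAD5 call was lost with the mean of its probes (adjusted p = 0.119), median scaling (0.2) and no filter (0.058), and without Snai1 array 2 (0.112), control array 1 (0.117) or control array 2 (0.0648).

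SMAD3, which transduces TGF-beta and activin, read 5968 and 4410 with ncRNA-a7 siRNA, 5238 and 4315 with Snai1 siRNA and 3776 and 4613 with control siRNA. These signals overlapped between groups, while the normalized values of both siRNAs lay above those of control. Its differences from control, 0.40 with ncRNA-a7 siRNA (limma adjusted p = 0.0869) and 0.32 with Snai1 siRNA (adjusted p = 0.175), missed the threshold. SMAD4, the partner shared by all receptor-regulated SMADs, read 2643 and 2791 with ncRNA-a7 siRNA, 3899 and 2164 with Snai1 siRNA and 3136 and 3971 with control siRNA, and differed by -0.29 and -0.16 from control (adjusted p = 0.248 and 0.568). SMAD2 was at 229 to 303 and SMAD1 and SMAD9 at 123 to 184, and none of the 3 was called.

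The inhibitory SMADs differed from each other. SMAD6, which mainly restrains BMP signalling, read 3572 and 3413 with ncRNA-a7 siRNA, 2458 and 1616 with Snai1 siRNA and 2084 and 2071 with control siRNA. Both ncRNA-a7 arrays stood above the other 4. It was 1.79-fold higher under ncRNA-a7 siRNA than under control siRNA (0.84 ± 0.13 SE on the log2 scale, limma adjusted p = 0.00162) and 1.74-fold higher than with Snai1 siRNA (0.80 ± 0.13, adjusted p = 0.00359), and both calls held under all 16 alternatives. Snai1 siRNA differed from control by 0.04 (adjusted p = 0.898). SMAD7, which restrains TGF-beta and BMP signalling alike, read 536 and 547 with ncRNA-a7 siRNA, 504 and 474 with Snai1 siRNA and 544 and 571 with control siRNA. It was not called in any comparison, and with ncRNA-a7 siRNA its 95% confidence interval ran from -0.30 to 0.29 on the log2 scale.

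The ID genes encode helix-loop-helix proteins without a DNA-binding region and are classic BMP targets. ID4 read 286 and 280 with ncRNA-a7 siRNA, 514 and 316 with Snai1 siRNA and 596 and 840 with control siRNA. The 3 groups did not overlap, with ncRNA-a7 siRNA lowest and control siRNA highest. ID4 was 2.76-fold lower under ncRNA-a7 siRNA than under control siRNA (-1.46 ± 0.15 SE on the log2 scale, limma adjusted p = 0.000155), the largest difference from control among the 38 genes, and held under all 16 alternatives. It was 1.76-fold lower with Snai1 siRNA than under control siRNA (-0.81 ± 0.15, adjusted p = 0.00579) and 1.57-fold lower under ncRNA-a7 siRNA than under Snai1 siRNA (-0.65 ± 0.15, adjusted p = 0.023). The fall with Snai1 siRNA was lost without Snai1 array 2 (0.0693) or control array 2 (0.0704). The difference between the siRNAs was lost without Snai1 array 1 (0.148), a7 array 1 (0.0964) or a7 array 2 (0.0898), and with an offset of 16 (0.0735) or no filter (0.0793).

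ID2 was also below control with both siRNAs. It read 3759 and 3279 with ncRNA-a7 siRNA, 4328 and 2802 with Snai1 siRNA and 5699 and 6033 with control siRNA, and no knockdown array reached a control array. It was 1.57-fold lower under ncRNA-a7 siRNA (-0.65 ± 0.12 SE on the log2 scale, limma adjusted p = 0.00654) and 1.55-fold lower with Snai1 siRNA (-0.63 ± 0.12, adjusted p = 0.00757) than with control siRNA. Those comparisons share the control arrays. Between the siRNAs ID2 differed by -0.02 (adjusted p = 0.947). A second ID2 probe read 1193 and 1334 with ncRNA-a7 siRNA, 1666 and 1101 with Snai1 siRNA and 2631 and 2718 with control siRNA, and differed from control by -1.03 and -0.89. The call with ncRNA-a7 siRNA was lost without control array 1 (adjusted p = 0.0831), and that with Snai1 siRNA without Snai1 array 2 (0.0865) or control array 1 (0.097).

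ID1 and ID3 showed smaller differences. ID1 read 11814 and 10961 with ncRNA-a7 siRNA, 15744 and 11906 with Snai1 siRNA and 13794 and 17871 with control siRNA. Both ncRNA-a7 arrays were below all the others. The ID1 difference of -0.38 from control with ncRNA-a7 siRNA missed the threshold (limma unadjusted p = 0.00902, adjusted p = 0.0728). Alternatives were not followed for ID1. In that comparison every ID gene had an unadjusted limma p under 0.05, while with Snai1 siRNA against control only ID2 and ID4 did. ID3 read 9866 and 8616 with ncRNA-a7 siRNA, 14618 and 10000 with Snai1 siRNA and 11575 and 13149 with control siRNA. Both ncRNA-a7 arrays were the lowest of the 6. ID3 was 1.38-fold lower under ncRNA-a7 siRNA than under Snai1 siRNA (-0.46 ± 0.12 SE on the log2 scale, adjusted p = 0.0316) and differed by -0.32 from control (adjusted p = 0.106), while Snai1 siRNA differed from control by 0.14 (adjusted p = 0.518). The difference from control with ncRNA-a7 siRNA passed the threshold with no background correction (0.04) and over probes above the 75th percentile (0.0315). The ID3 call between the siRNAs held in 6 of 16 alternatives and was lost whichever array was left out, with adjusted p of 0.157 and 0.107 without Snai1 array 1 and 2, 0.0592 and 0.054 without control array 1 and 2, and 0.0776 and 0.116 without a7 array 1 and 2. It was also lost with an offset of 16 (adjusted p = 0.0852), median scaling (0.273), no filter (0.129) or a fit of the 2 groups alone (0.0587).

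Among the ligands, 1 of the 5 tested was called. INHBB, which encodes the beta-B subunit of activins and inhibins, read 3747 and 3646 with ncRNA-a7 siRNA, 3142 and 2239 with Snai1 siRNA and 2568 and 2835 with control siRNA. Both ncRNA-a7 arrays were above the other 4. It was 1.47-fold higher under ncRNA-a7 siRNA than under control siRNA (0.56 ± 0.11 SE on the log2 scale, limma adjusted p = 0.00954) and 1.37-fold higher than with Snai1 siRNA (0.45 ± 0.11, adjusted p = 0.0313). The call against control was lost with median scaling (0.173) and without control array 1 (0.06) or control array 2 (0.0889). The call between the siRNAs was lost without Snai1 array 1 (0.0959), Snai1 array 2 (0.175), control array 1 (0.0579), a7 array 1 (0.0943) or a7 array 2 (0.0984), and with an offset of 16 (0.0806), median scaling (0.186), no filter (0.13) or a fit of the 2 groups alone (0.0555).

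TGFB2 read 703 and 869 with ncRNA-a7 siRNA, 878 and 670 with Snai1 siRNA and 738 and 901 with control siRNA, and it differed by at most 0.03 in size on the log2 scale. TGFB3, BMP2 and BMP4 were dim, at 158 to 254, and differed by at most 0.20 in size. TGFB1 and INHBA did not pass the filter.

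Of the secreted proteins that bind ligands, FSTL1, a follistatin-like glycoprotein, rose with Snai1 siRNA. It read 463 and 472 with ncRNA-a7 siRNA, 783 and 544 with Snai1 siRNA and 448 and 576 with control siRNA, and signals of the last 2 groups overlapped before normalization but not after it. FSTL1 was 1.42-fold higher with Snai1 siRNA than under control siRNA (0.50 ± 0.12 SE on the log2 scale, limma adjusted p = 0.0196) and 1.51-fold lower under ncRNA-a7 siRNA than under Snai1 siRNA (-0.60 ± 0.12, adjusted p = 0.0112). With ncRNA-a7 siRNA it differed from control by -0.09 (adjusted p = 0.688). The rise with Snai1 siRNA was lost without Snai1 array 1 (0.117), Snai1 array 2 (0.0702), control array 1 (0.179) or control array 2 (0.0648), and with an offset of 16 (0.0549), median scaling (0.234) or no filter (0.0853). The difference between the siRNAs was lost without Snai1 array 1 (0.0727), Snai1 array 2 (0.0565) or a7 array 1 (0.0633), and with median scaling (0.0791) or no filter (0.0534).

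FST, or follistatin, which binds and blocks activins, read 505 and 406 with ncRNA-a7 siRNA, 593 and 511 with Snai1 siRNA and 533 and 631 with control siRNA. Its differences of -0.35 from control and -0.39 from Snai1 siRNA were not called (limma adjusted p = 0.13 and 0.108). FSTL3, a second activin binder, read 909 and 1014 with ncRNA-a7 siRNA, 1234 and 952 with Snai1 siRNA and 962 and 1348 with control siRNA, and these signals overlapped between groups. LTBP1, which holds latent TGF-beta in the matrix, was dim at 153 to 167, and neither gene was called.

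PMEPA1, a TGF-beta target that inhibits SMAD signalling, was above control with both siRNAs, in comparisons that share the control arrays. It read 1330 and 1264 with ncRNA-a7 siRNA, 1244 and 1006 with Snai1 siRNA and 741 and 847 with control siRNA. No knockdown array fell to the level of a control array. PMEPA1 was 1.76-fold higher under ncRNA-a7 siRNA (0.81 ± 0.12 SE on the log2 scale, limma adjusted p = 0.00124), a call that held under all 16 alternatives, and 1.55-fold higher with Snai1 siRNA (0.63 ± 0.12, adjusted p = 0.00578) than with control siRNA. A second probe, at 567 to 1015, rose by 0.56 and 0.62 in the same comparisons, while 2 further probes were below the filter. Between the siRNAs the brightest probe differed by 0.18 (adjusted p = 0.395). The call with Snai1 siRNA was lost with median scaling (adjusted p = 0.0668) and without Snai1 array 2 (0.0693), control array 1 (0.0546) or control array 2 (0.055).

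SKIL, or SnoN, a SMAD corepressor, read 340 and 402 with ncRNA-a7 siRNA, 536 and 418 with Snai1 siRNA and 380 and 473 with control siRNA. Both Snai1 arrays were above both ncRNA-a7 arrays. It was 1.39-fold lower under ncRNA-a7 siRNA than under Snai1 siRNA (-0.47 ± 0.13 SE on the log2 scale, limma adjusted p = 0.0439) and was not called against control with ncRNA-a7 siRNA (-0.19, adjusted p = 0.423) or Snai1 siRNA (0.29, adjusted p = 0.205). A second SKIL probe was below the filter. The call held in 6 of 16 alternatives. It was lost without Snai1 array 1 (adjusted p = 0.133), Snai1 array 2 (0.194), control array 1 (0.075), control array 2 (0.0693) or a7 array 1 (0.221), and with an offset of 16 (0.0985), median scaling (0.248), the authors' scaled values (0.0786), no filter (0.153) or a fit of the 2 groups alone (0.073).

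The ubiquitin ligases SMURF1 and SMURF2, which mark receptors and SMADs for degradation, were not called. SMURF1 read 509 and 449 with ncRNA-a7 siRNA, 535 and 444 with Snai1 siRNA and 370 and 512 with control siRNA, and SMURF2 was dim at 142 to 176. TGIF1, a homeobox corepressor of SMADs, read 8875 and 7169 with ncRNA-a7 siRNA, 9563 and 7303 with Snai1 siRNA and 8021 and 9823 with control siRNA. Its 6 probes above the filter differed by -0.35 to 0.23 over the 3 comparisons, and no probe was called.

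CCN2, or connective tissue growth factor, a matricellular protein induced by TGF-beta and by YAP with TEAD factors, rose with ncRNA-a7 siRNA. It read 3305 and 3204 with ncRNA-a7 siRNA, 1806 and 1533 with Snai1 siRNA and 1681 and 2182 with control siRNA. Both ncRNA-a7 arrays stood above the other 4. It was 1.81-fold higher under ncRNA-a7 siRNA than under control siRNA (0.86 ± 0.12 SE on the log2 scale, limma adjusted p = 0.0013) and 1.94-fold higher than with Snai1 siRNA (0.96 ± 0.12, adjusted p = 0.00124). Both calls held under all 16 alternatives. With Snai1 siRNA it differed from control by -0.10 (adjusted p = 0.704). A second probe, which read 3043 and 2895, 1819 and 1429, and 1574 and 2043 in the same order of groups, gave differences of 0.82 from control and 0.87 between the siRNAs.

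**Figure D3:**
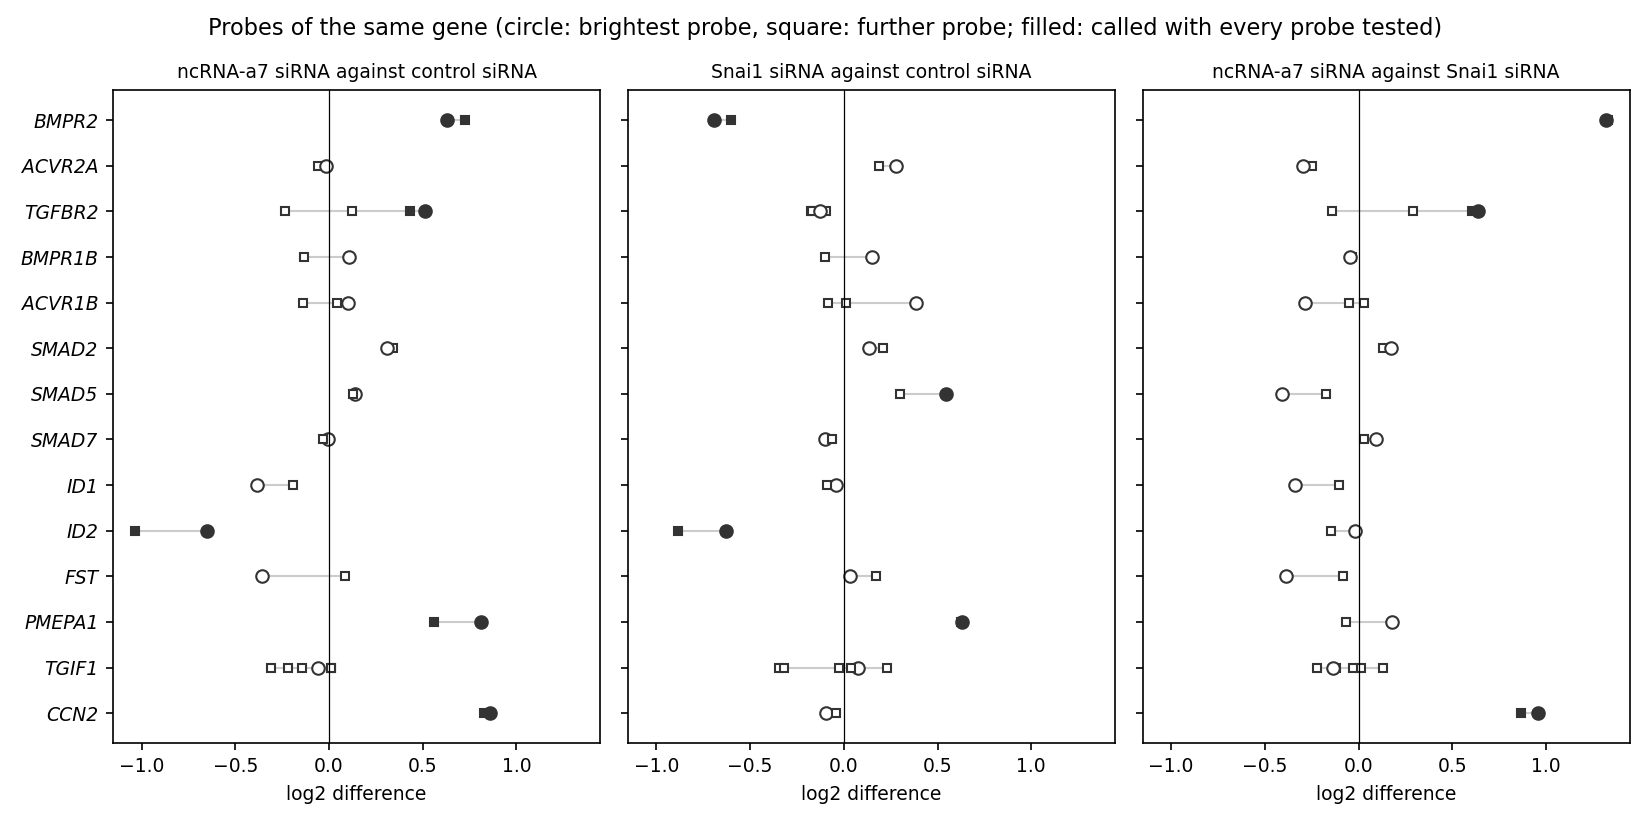
Log2 differences of every probe above the filter for the 14 genes with more than 1 such probe, in the 3 comparisons; circles are the brightest probe, squares further probes, and filled symbols are called with every probe tested on its own. The probes of BMPR2, ID2, PMEPA1 and CCN2 lie on the same side of 0 wherever the gene is called, and those of TGFBR2 spread from -0.24 to 0.51 with ncRNA-a7 siRNA against control siRNA.

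Across role groups, then, the calls with ncRNA-a7 siRNA against control siRNA fell on 2 of 4 type II receptors, 1 of 3 co-receptors, 1 of 2 inhibitory SMADs, 2 of 4 ID genes, 1 of 5 ligands, 1 of 5 intracellular inhibitors and CCN2. With Snai1 siRNA they fell on 1 type II receptor, 1 co-receptor, 1 SMAD, 2 ID genes, 1 ligand binder and 1 intracellular inhibitor. The 24 genes not called in any comparison with the main settings had log2 differences from -0.39 to 0.40 there. Some of them passed the threshold under alternatives. With ncRNA-a7 siRNA, 14 listed genes were called over probes above the 75th percentile, 9 of them shared with the main settings. The others included TGFBR3, ID3 and some of the 24. Among the 38 genes, alternatives were followed gene by gene for the 14 called genes alone, so not for ID1, SMAD3 or ACVR1B.

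Other genes of the pathway were read from 4 lists. Their counts stand beside 9.83% of all features called with ncRNA-a7 siRNA, 9.15% with Snai1 siRNA and 8.1% between the siRNAs. No list was tested against these shares. Of 23 tested genes known to respond to TGF-beta or activin, with 28 listed, 4 rose and 1 fell with ncRNA-a7 siRNA, and 6 rose and 2 fell with Snai1 siRNA. Between the siRNAs 1 was higher and 5 were lower. Median log2 differences of this list were -0.06, 0.05 and -0.12 in the same order, beside -0.01, -0.01 and -0.01 over all features. CDH2, which encodes N-cadherin, rose 2.24-fold with ncRNA-a7 siRNA (limma adjusted p = 0.000134) and 2.40-fold with Snai1 siRNA (adjusted p = 9.59e-05), and ACTA2, smooth muscle actin, rose 1.88-fold with ncRNA-a7 siRNA (adjusted p = 0.00193) and 1.51-fold with Snai1 siRNA (adjusted p = 0.0204). COL4A1, a basement membrane collagen, was 1.75-fold lower under ncRNA-a7 siRNA than under Snai1 siRNA (adjusted p = 0.00208). Against control siRNA it was called higher with Snai1 siRNA, a call that held in 10 of 16 alternatives, and was not called with ncRNA-a7 siRNA. MYC, which TGF-beta represses in epithelial cells, was 1.56-fold lower under ncRNA-a7 siRNA (adjusted p = 0.00392) and 1.34-fold lower with Snai1 siRNA (adjusted p = 0.0337). THBS1, a matricellular activator of latent TGF-beta, was 1.70-fold lower with Snai1 siRNA (adjusted p = 0.00461), a call lost without control array 2 (highest adjusted p = 0.0596). With Snai1 siRNA the ACTA2 call was lost with an offset of 16, median scaling or no filter and without Snai1 array 1, Snai1 array 2 or control array 1 (highest adjusted p = 0.223). The MYC call with Snai1 siRNA was lost with the same settings or the mean of its probes, and without any 1 of the 4 arrays compared (highest adjusted p = 0.186). The calls of CDH2 with both siRNAs, of ACTA2 and MYC with ncRNA-a7 siRNA and of COL4A1 between the siRNAs held under all 16 alternatives.

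Of 10 tested BMP response genes, with 15 listed, 0 were called by limma with ncRNA-a7 siRNA, where 3 had an unadjusted p under 0.05, and 2 rose with Snai1 siRNA, LFNG (1.51-fold, limma adjusted p = 0.00824) and HEY1 (1.38-fold, adjusted p = 0.04), both targets of Notch as well. TBX3 was lower between the siRNAs (log2 difference -0.44, adjusted p = 0.0381). LFNG held in 12 of 16 alternatives and was lost with median scaling and without Snai1 array 2, control array 1 or control array 2 (highest adjusted p = 0.0884). HEY1 held in 5 of the 15 alternatives that tested it. It was lost without any 1 of the 4 arrays compared. It was also lost with an offset of 16, median scaling, the authors' scaled values, no filter, the mean of its probes or a replicate block (highest adjusted p = 0.239, with median scaling). TBX3 held in 4 of 16. It was lost without any 1 of the 6 arrays. It was also lost with an offset of 16, median scaling, the authors' scaled values, no filter, a fit of the 2 groups alone or a replicate block (highest adjusted p = 0.302, with median scaling).

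Of 17 tested ligands and antagonists outside the 41, with 33 listed, 3 rose and 1 fell with ncRNA-a7 siRNA, 1 rose and 2 fell with Snai1 siRNA, and 1 was higher and 2 lower between the siRNAs. BMP1, a procollagen protease that is not a BMP ligand despite its name, rose 2.46-fold with ncRNA-a7 siRNA (limma adjusted p = 8.04e-05) and 2.07-fold with Snai1 siRNA (adjusted p = 0.000346), and both calls held under all 16 alternatives. GDF15, a distant stress-induced member of the family, was 1.86-fold lower with Snai1 siRNA (adjusted p = 0.00115). BMP ligand genes were called too. BMP8B and BMP3 were higher with ncRNA-a7 siRNA and BMP6 was lower with Snai1 siRNA, while BMP7 was lower under ncRNA-a7 siRNA than under Snai1 siRNA. The calls of BMP8B, BMP6 and BMP7 held in 11 of 16, 7 of 16 and 9 of 15 alternatives. NBL1, a BMP antagonist, was 1.59-fold lower under ncRNA-a7 siRNA than under Snai1 siRNA (adjusted p = 0.0068), a call lost without Snai1 array 2 or a7 array 1 (highest adjusted p = 0.063).

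Of 28 tested receptors and intracellular regulators, with 31 listed, 2 rose and 1 fell with ncRNA-a7 siRNA, 1 rose and 1 fell with Snai1 siRNA, and 1 was higher between the siRNAs. Of all features, 9.83%, 9.15% and 8.1% were called in the same order. CD109, a membrane protein that binds TGF-beta and its receptors, rose 1.53-fold with ncRNA-a7 siRNA (limma adjusted p = 0.00554) and 1.41-fold with Snai1 siRNA (adjusted p = 0.0165). The first of these was lost with median scaling and without control array 1 or 2 (highest adjusted p = 0.0548). The second was lost with median scaling, with no filter and without any of the 4 arrays compared (highest adjusted p = 0.232).

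**Figure D4:**
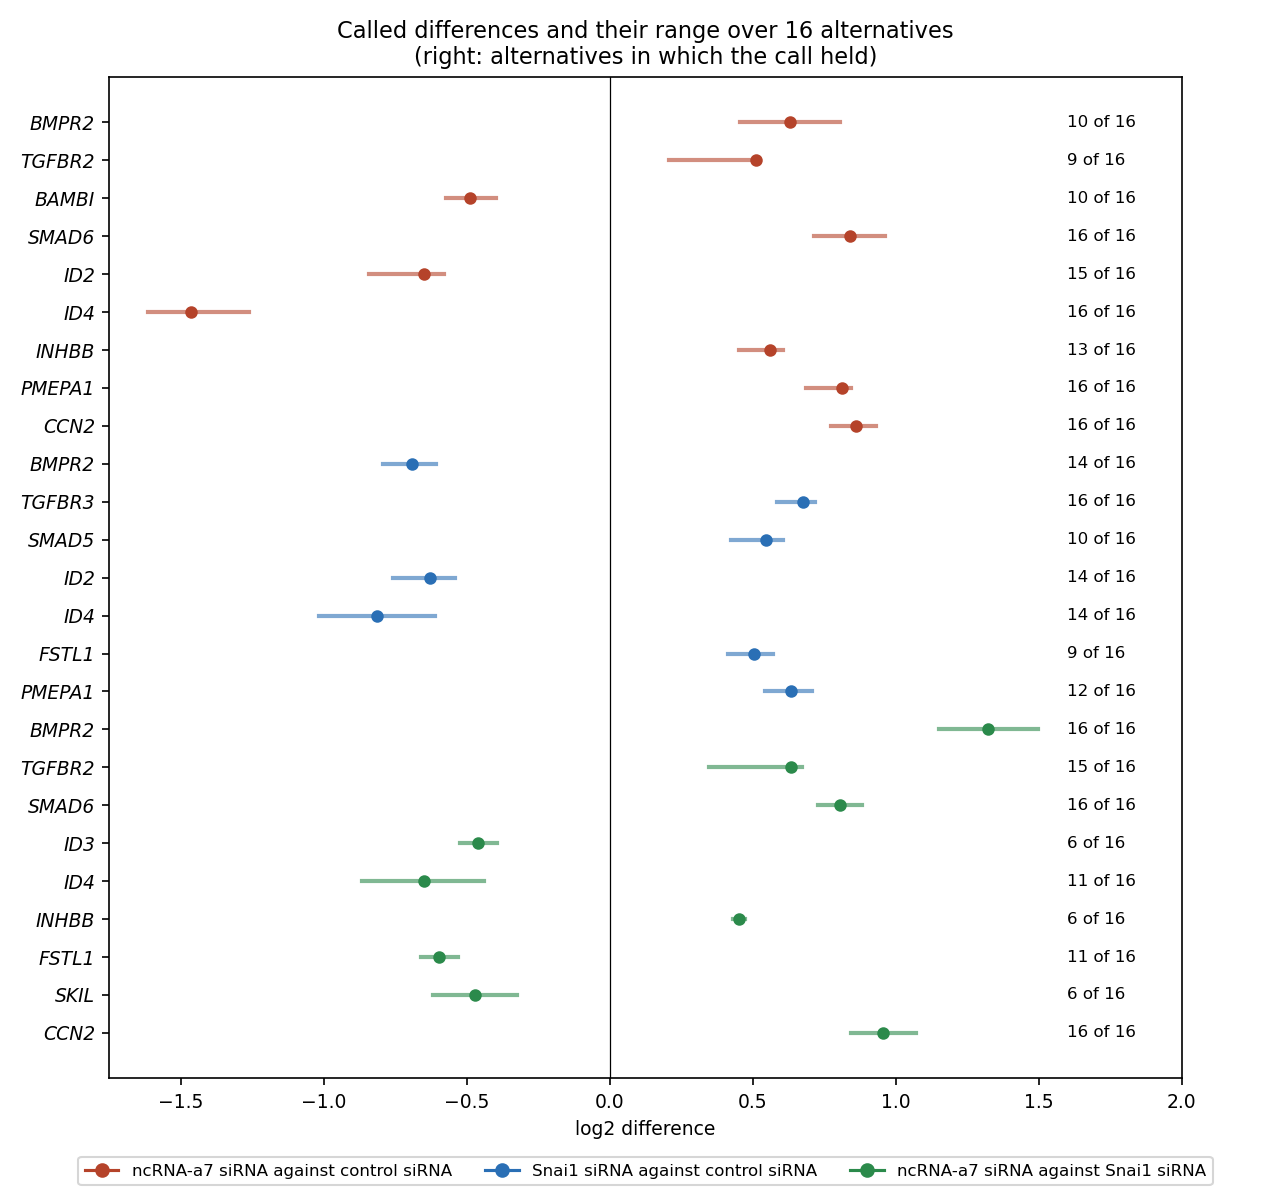
The 25 called log2 differences (points) with the lowest and highest value over 16 alternatives (lines), coloured by comparison; the text at the right gives the number of alternatives in which the adjusted p stayed under 0.05. ID4, SMAD6, PMEPA1 and CCN2 with ncRNA-a7 siRNA, TGFBR3 with Snai1 siRNA, and BMPR2, SMAD6 and CCN2 between the siRNAs held in 16 of 16, and no line crosses 0.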

How the data were processed

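Biotin-labelled total RNA of 6 cultures or aliquots of A549 cells was hybridised to single-colour bead arrays, per the labels. The deposited signals are linear intensities, not normalized, with 1 value for a probe on an array. The authors' value table holds intensity too, each array multiplied by a constant from 0.783 to 1 so that all means equal 715. Software and detection p-values are not given in the sources used here. Signals were corrected with limma's normexp (offset 50), quantile normalized and put on the log2 scale, so fold changes of dim genes are understated. Of 48701 probes, 24350 with a mean above the median were kept. The brightest probe of a gene was used, giving 19730 features. All 6 arrays entered 1 fit (limma 3.58.1, R 4.3.3, lmFit and eBayes, 3 residual and 8.85 prior degrees of freedom), with Benjamini-Hochberg adjustment over all features. The number of arrays limits precision, with a typical standard error of 0.13. Groups and replicate numbers came from the labels. Named genes were all listed genes, with per-array values where called and for the brightest others, and up to 3 called genes of each further list with the smallest p. The cell type markers with calls, EPCAM among them, were named after their values were seen. The listed genes, the further lists and the motifs were chosen with earlier results of these data known. The fit alone was tested on simulated log2 values with independent noise. Background correction, normalization and the filter were not part of that test.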

Additional observations from a re-analysis of the deposited data

How the results depend on the processing

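All 25 calls of the listed genes kept their direction under the 16 alternatives, and 8 stayed past the threshold under all of them. Direction was fixed in advance with another filter, every probe tested, the 2 groups alone or a replicate block, which reuse the same values. Numbers of listed genes called moved by over 1.5 times with median scaling, to 5 with ncRNA-a7 siRNA, 4 with Snai1 siRNA and 5 between the siRNAs, against 9, 7 and 9. With an offset of 16 it was 5, and with no filter 4, between the siRNAs. With ncRNA-a7 siRNA it was 14 of 27 tested over probes above the 75th percentile, against 9 of 38. Leaving out 1 array gave 4 to 9 with ncRNA-a7 siRNA, 2 to 7 with Snai1 siRNA and 4 to 7 between the siRNAs. Features called were 1940, 1805 and 1598 in the same order. They were 1020, 976 and 566 with an offset of 16, 922, 1066 and 698 with median scaling, and 821, 817 and 496 with no filter, where more probes were tested. Between the siRNAs they were 2484 with no background correction, 2502 of 9958 over probes above the 75th percentile and 1053 in a fit of the 2 groups alone. Leaving out 1 array gave 560 to 1754, 466 to 1935 and 339 to 1151. The cause of these shifts was not tested. Differences that changed sign were near 0 and not called. With Snai1 siRNA against control siRNA and median scaling, the log2 difference of SMAD6 was -0.0491, of ID3 -0.0166 and of INHBB -0.0126. When 1 array was left out, SMAD6 in that comparison ran from -0.0855 without control array 2 to 0.164, and was also below 0 without Snai1 array 1 (-0.0376), and CCN2 ran from -0.212 to 0.0171 without Snai1 array 1. Between the siRNAs, ID2 ran from -0.105 to 0.0656 without Snai1 array 1, and was also above 0 without a7 array 2 (0.0478). With the replicate number as a block, 9, 7 and 9 listed genes and 1720, 1657 and 1416 features were called, and no call of a listed gene changed, while HEY1 (adjusted p = 0.0529) and TBX3 (0.051) lost theirs. Nothing in the labels pairs the arrays, and deviations of same-numbered arrays correlated at -0.07 to 0.02. Without background probes, dim genes such as TGFB1 and INHBA could not be assessed.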
